A study of Homo sapiens with 12 samples.

Results

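The change in messenger RNA between day 0 and day 6 of reprogramming was measured in dH1f cells carrying a non-targeting control guide (NT), with 3 libraries on each day. The genes described are those whose mean over these 6 libraries lay at least 1 above the lowest value of the deposited table, a rule that does not use the difference between the days. It took 14836 of 60660 listed gene identifiers, of which 20971 were at the lowest value in all 6 libraries and 24853 lay between. The series holds 12 libraries, and the other 6 come from dH1f cells with a guide against MRG15, used here only where stated. dH1f is a line of fibroblasts differentiated from the human embryonic stem cell line H1, so all libraries share 1 genetic origin. NT day 6 cells were of wild-type genotype, had the control guide and were labelled as after OSKM, with the code D6. NT day 0 cells were of wild-type genotype, had the same control guide and were labelled as before OSKM, with the code D0. The abbreviation names the factors OCT4, encoded by POU5F1, and SOX2, KLF4 and MYC. How they were delivered is not given in the sources used here. With no day 6 cells grown without the factors, OSKM and time in culture cannot be told apart.

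OCT4 and SOX2 bind DNA side by side at enhancers of pluripotency genes, KLF4 binds genes of both epithelial and pluripotent cells, and MYC drives growth, ribosome production and division. In fibroblasts the factors are known to silence mesenchymal genes and to switch on epithelial genes and the cell cycle within days, a step called the mesenchymal-to-epithelial transition. The network of pluripotency genes is known to come on later and in a minority of cells, and bulk RNA gives only the average over all cells of a dish. Fewer cells of a type and less RNA per cell therefore cannot be told apart in any result below.

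Estimated depth was 20.8 to 22.2 M reads in the NT day 6 libraries and 20.7 to 21.4 M in the NT day 0 libraries. Levels are estimated normalised counts, obtained by inverting the variance-stabilising transformation (VST) of the deposited log2 values, and differences are NT day 6 minus NT day 0 in VST units. A gene was called at an adjusted p under 0.05 from limma, with Benjamini-Hochberg adjustment over the 14836 genes. The difference understates the change of genes with few reads. Means are given with the SD over 3 libraries. Libraries of the same day correlated at 0.993 to 0.994 over these genes, and libraries of different days at 0.889 to 0.896. The labels do not say whether the replicates were separate cultures, and each p-value covers only how much these libraries vary. Transcripts of an introduced factor and of the cell's own gene are counted together. Whether strand was used in counting is not given, so overlapping genes and near-identical copies are uncertain. At the limit of the filter, TFCP2L1 was just inside with 35.9, 35.1 and 35.2 on day 6 and 3.12, 3.14 and 3.25 on day 0, and TRIM61 was just outside with 23.7, 17.4 and 21.8 on day 6 and 7.23, 13 and 8.05 on day 0.

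Of the 14836 genes, 9901 (66.7%) were called. Of these 4971 (33.5%) were higher and 4930 (33.2%) lower. The 3 libraries of one day all lay above the 3 of the other for 10318 genes (69.5%). Calls reached down to small changes: the median SE was 0.095, the smallest difference called was 0.097 and the median absolute difference of all genes was 0.376. Large changes were less even. Differences of at least 1 numbered 1285 higher and 1068 lower, those of at least 2 numbered 467 higher and 150 lower, and those of at least 4 numbered 74 higher and 3 lower. Part of this follows from the scale and the filter, since 717 genes passed through their day 6 level alone and 313 through their day 0 level alone. Such genes had to differ, and 638 of the 717 were called higher and 209 of the 313 lower. Among the 13806 genes that passed on both days, 4333 (31.4%) were higher and 4721 (34.2%) lower. The median difference of all genes was -0.01, and lists are described by their counts and median beside these values.

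**Figure D1:**
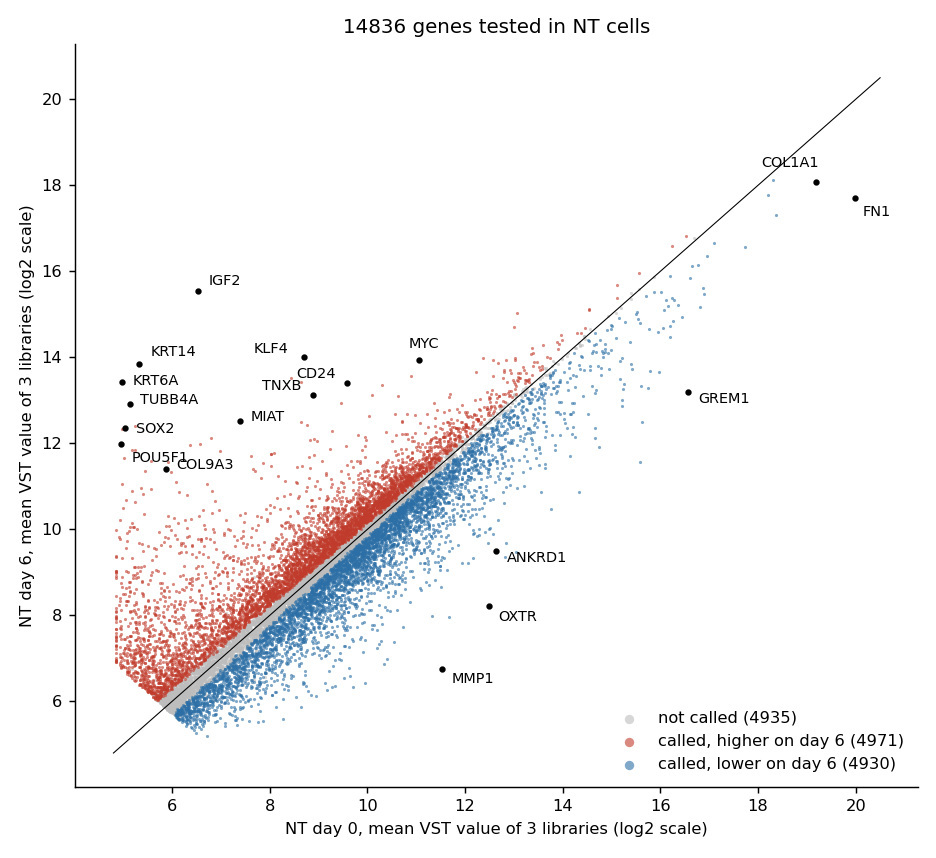
Mean VST value (log2 scale) of 3 NT day 6 libraries (vertical axis) against that of 3 NT day 0 libraries (horizontal axis) for the 14836 genes tested, coloured by call, with the line of equal values. IGF2 lies farthest above the line with a difference of 9.02, and MMP1 farthest below it with -4.77.

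All 4 factors rose. POU5F1 had 4101, 3973 and 3981 counts on day 6, against 1.33, 0 and 0 on day 0 (difference 7.04, SE 0.14, limma adjusted p = 4.02e-15). SOX2 had 5384, 5351 and 4912 on day 6, against 1.08, 1.11 and 0 on day 0 (difference 7.32, limma adjusted p = 2.24e-17). Both were thus at the level of single reads before OSKM and far above that in every day 6 library. Having passed the filter through day 6 alone, POU5F1 and SOX2 had to rise. KLF4, already present in fibroblasts, had 16674, 16221 and 16710.2 on day 6, against 367, 362 and 357 on day 0, which is 45.7-fold higher. MYC had 15859, 15244 and 15566 on day 6, against 2002, 2101 and 2118 on day 0, a 7.5-fold rise. The 4 genes together took 0.212 to 0.220% of the counts on day 6 and 0.0102 to 0.0105% on day 0. POU5F1 lies on GRCh38 chromosome 6, 31164337 to 31180731, SOX2 on chromosome 3, 181711924 to 181714436, and KLF4 on chromosome 9, 107484852 to 107490482.

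IGF2, an imprinted growth factor of the fetus, showed the highest difference of all genes tested. It had 50725, 44608 and 48385 counts on day 6, against 41.7, 42.5 and 47.4 on day 0 (difference 9.02, SE 0.08, limma adjusted p = 3.16e-18). H19, the imprinted noncoding RNA that lies beside IGF2, had 203, 234 and 153 on day 6 and 0 in all 3 day 0 libraries, at least 197-fold higher with a floor of 3 counts over the day 0 group. IGF2 spans GRCh38 chromosome 11, 2129112 to 2149603, and H19 spans chromosome 11, 1995176 to 2001470. The identifier ENSG00000240801, with no symbol, lies inside IGF2 (2129121 to 2129964) and its rise cannot be told apart from that of IGF2.

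A set of 78 genes had at least 100 counts in each day 6 library and at most 3 in each day 0 library, and 0 genes showed the reverse. Of these 64 were protein-coding, 24 were at 0 in all 3 day 0 libraries, and 60 belonged to none of the gene lists used here. Most were of modest level, 42 with a day 6 mean under 300 and 10 with at least 1000. Besides POU5F1, SOX2 and keratins, the abundant ones included PI16, a secreted peptidase inhibitor, with 5247, 5391 and 4766 on day 6, against 1.7, 0 and 0 on day 0. APOL4, an apolipoprotein L, had 1498, 1669 and 1579 on day 6, against 0, 0.864 and 1.78 on day 0. KLK10, a secreted kallikrein protease of epithelia, had 1164, 1146 and 1087 on day 6, against 0, 0.831 and 0 on day 0. The set also held genes typical of single tissues that are far apart, such as haemoglobin alpha (HBA2, 419, 518 and 469 on day 6 and 0 in all 3 day 0 libraries), salivary proline-rich protein (PRB1, 266, 294 and 245 on day 6, against 0, 0.91 and 0 on day 0) and adiponectin (ADIPOQ, 182, 242 and 237 on day 6, against 2.2, 1.11 and 1.16 on day 0). TUBB4A, a brain β-tubulin, was close to this limit with 7790.5, 7424 and 7928 on day 6, against 0, 4.28 and 1.1 on day 0. So was CALB1, a neuronal calcium-binding protein, with 3425, 3696 and 3769.6 on day 6, against 4.97, 0.37 and 2.15 on day 0, and CA2, a carbonic anhydrase, with 3079.7, 3399 and 3083 on day 6, against 3.04, 0 and 0 on day 0. The gap between the days follows from how all these genes were picked.

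Some genes with large rises were neighbours. Of 193 genes with a position and a difference of at least 3, 44 lay in 20 runs of genes within 300 kb of each other. One run joined KRT14, KRT16 and KRT17, another GDF3 and NANOG, another LEFTY1 and LEFTY2, another KLK1, KLK10 and KLK14, and another CDSN, POU5F1 and HCP5. Of 150 genes lower by at least 2, 16 lay in 7 runs, among them CD274 and PDCD1LG2, the ligands of the immune checkpoint receptor PD-1. How often genes picked without regard to their difference lie this close was not counted, so nothing is read from the number of runs.

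**Figure D2:**
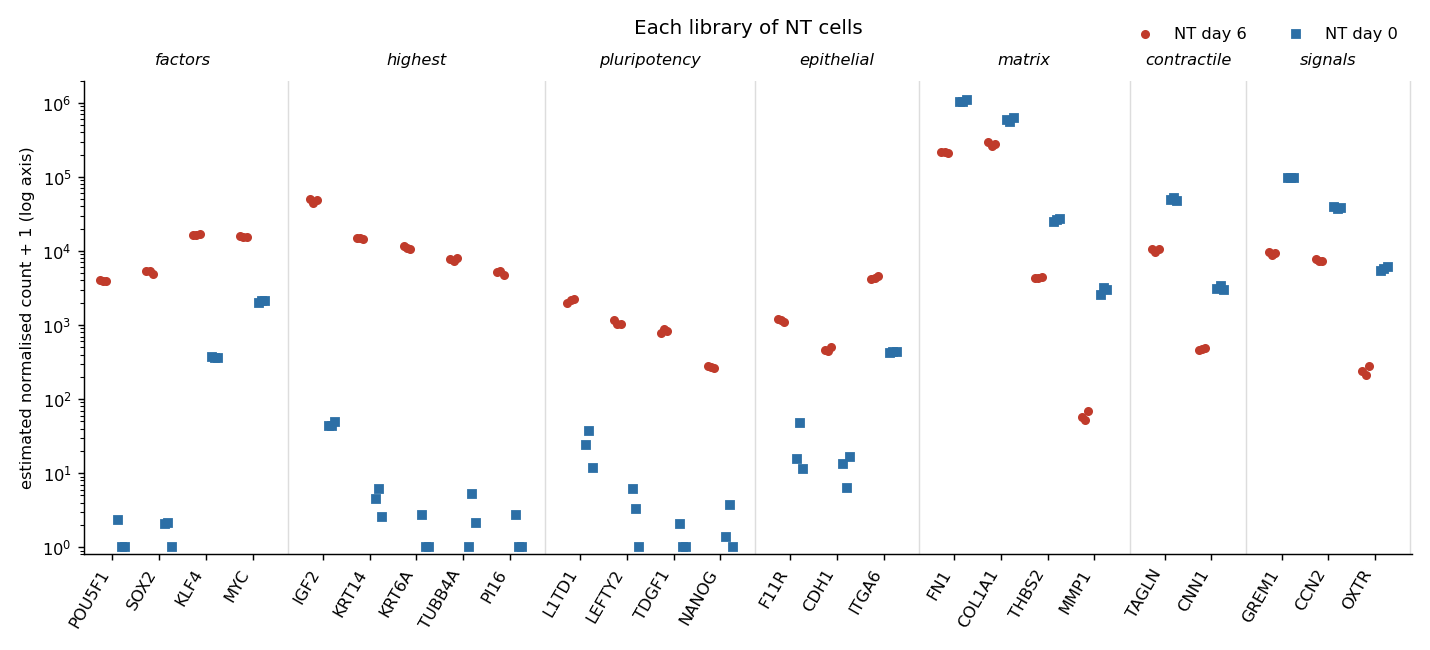
Estimated normalised count plus 1 (vertical log axis) of 25 genes in each of 3 NT day 6 libraries (red circles, left) and 3 NT day 0 libraries (blue squares, right), grouped by role. The days lie apart, which for the genes named by the size of their difference was a condition of being named. POU5F1, SOX2, KRT6A and PI16 have at most 2 counts in every day 0 library.

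The interstitial matrix that defines fibroblasts fell but did not vanish. Of 30 matrix genes tested 25 were lower, 4 higher and 1 not called, with a median difference of -1.04. Of 10 markers of fibroblasts 2 were higher and 8 lower, and their summed counts were 580740 to 615050 on day 6 and 1173500 to 1253100 on day 0, with none near 0 on either day. FN1, fibronectin, had 216601, 214912 and 207573 counts on day 6, against 1016057, 1017081 and 1083984 on day 0, 4.88-fold lower (difference -2.29, SE 0.05, limma adjusted p = 7.41e-15). Its share of all counts was 1.09 to 1.13% on day 6 and 4.33 to 4.58% on day 0. COL1A1, the chain that makes up most of type I collagen, had 292140.3, 263735 and 276932 on day 6, against 595522, 555699.9 and 629931 on day 0 (difference -1.10, a call lost after quantile normalisation). Its rank by counts was the same in every NT library, so that scaling sets its difference to 0. The lowest day 0 library of FN1 and of COL1A1 stayed above the highest day 6 library, and the days did not overlap for 69.5% of all genes. TNC, the adhesion-modulating tenascin C, fell to 3785 ± 354 on day 6, against 27531 ± 2907 on day 0 (SD, n = 3 each), and THBS2 (thrombospondin 2) to 4402 ± 76.7, against 25785 ± 1441 on day 0. FBLN5, which assembles elastic fibres, fell by 2.44. COL3A1, the collagen chain of soft tissue, fell by only 0.60, with 83138 ± 809 on day 6 and 126339.6 ± 1238 on day 0. The 4 genes higher were FBLN2 (0.75), FBN2 (0.60), COL14A1 (0.45) and DCN (0.25). The call of DCN was lost without NT day 0 replicate 3 (0.12), without NT day 6 replicate 1 (0.24) and without NT day 6 replicate 2 (0.22). The list took 6.09 to 6.41% of the counts on day 6 and 12.96 to 13.65% on day 0.

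**Figure D3:**
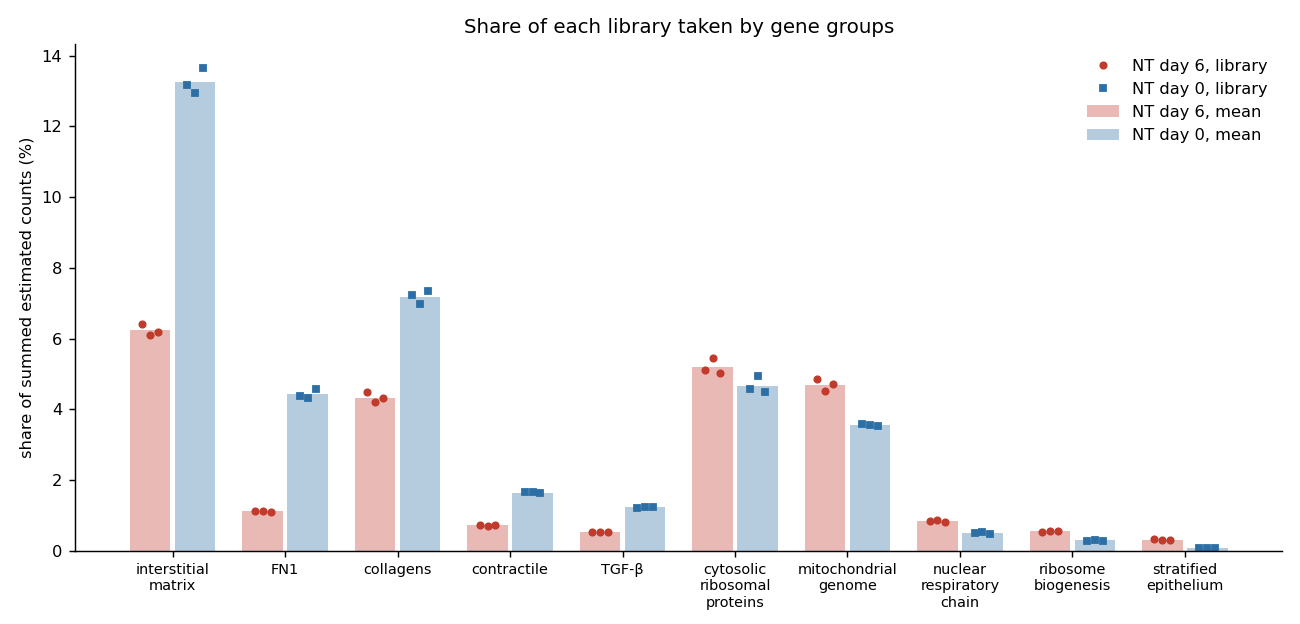
Share of the summed estimated counts (%, vertical axis) taken by gene groups and by FN1 in each NT day 6 library (red circles) and NT day 0 library (blue squares), with bars at the mean of 3 libraries. Matrix genes took 6.09 to 6.41% on day 6 and 12.96 to 13.65% on day 0, and stratified epithelium genes took 0.313 to 0.320% on day 6 and 0.0618 to 0.0657% on day 0.

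Collagen genes went both ways. Of 37 collagen genes tested 12 were higher and 19 lower, and of the 34 that passed on both days 9 were higher and 19 lower. Those higher by the largest steps were COL9A3, a cartilage collagen, with 2517, 2783 and 2604 counts on day 6, against 9.3, 14.6 and 22.3 on day 0 (difference 5.53), and COL4A3, a chain of specialised basement membranes such as that of the kidney, with 594, 693 and 846 on day 6, against 3.69, 3.73 and 25.3 on day 0. COL10A1, of growth-plate cartilage, rose by 3.88, and COL17A1, which anchors keratinocytes to the basement membrane, by 3.69. COL4A3 and COL17A1 passed through day 6 alone and so had to rise. The common basement membrane chains COL4A1 and COL4A2 went the other way, to 31097 ± 807 and 27041 ± 2075 on day 6, against 88555 ± 2688 and 75023 ± 1982 on day 0. Laminins, the other scaffold of basement membranes, split likewise. LAMB3, a subunit of the epidermal laminin, rose 4.96-fold, and LAMA5 rose by 1.82. LAMA1, the embryonic α chain, fell to 224 ± 8.18 on day 6, against 1308 ± 242 on day 0. Of 10 laminins 5 were higher and 4 lower.

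Genes that modify and export collagen mostly fell. Of 27 tested 23 were lower and 1 higher, with a median of -0.82. LOXL2, a lysyl oxidase that cross-links collagen, had 10504, 10112 and 9426 on day 6, against 54761, 54089.9 and 56542 on day 0 (5.51-fold lower, limma adjusted p = 2.69e-15). LOXL3 fell by 2.17, P3H2, a prolyl hydroxylase, by 2.16, and PLOD2, a lysyl hydroxylase, by 1.25. The single gene that rose was BMP1 (0.29), the protease that trims procollagen. The chaperone SERPINH1, needed to fold collagen, fell by 0.74. Of 25 matrix-degrading proteases and their inhibitors 16 were lower and 5 higher. MMP1, the interstitial collagenase, had the lowest difference of all genes tested, with 56.9, 51.4 and 68 counts on day 6, against 2580.2, 3191 and 2986 on day 0 (49.7-fold lower, difference -4.77, SE 0.11, limma adjusted p = 2.96e-14). PLAU, urokinase, fell to 1143 ± 24.1 on day 6, against 6525 ± 205 on day 0, and MMP14, the membrane-bound collagenase, to 13474 ± 718, against 43544 ± 1352 on day 0. MMP15, another membrane-bound member, rose 4.21-fold. The inhibitor TIMP3, with 16039 ± 462 on day 6 and 5250.2 ± 376 on day 0, rose, while TIMP2 fell by 0.74.

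The contractile apparatus of myofibroblasts fell almost throughout. Of 25 genes tested 24 were lower, 0 higher and 1 not called (MYH11, -0.05), with a median of -1.44. CNN1, calponin, had 464, 469 and 484 on day 6, against 3021, 3363 and 2965 on day 0 (6.6-fold lower, difference -2.58, SE 0.06, limma adjusted p = 5.44e-14). TAGLN, transgelin, had 10521, 9591 and 10683 on day 6, against 48529, 52427 and 47810.4 on day 0, and MYLK, the kinase that starts smooth muscle contraction, fell by 2.41. TPM1, tropomyosin, stood at 8129 ± 127 on day 6 and 37856 ± 1932 on day 0. No day 6 library reached any day 0 library for these 4 genes, and the days did not overlap for 69.5% of all genes. ACTA2, smooth muscle actin, fell by 1.31 and ACTG2, the enteric smooth muscle actin, by 2.19.

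Genes of the TGF-β and YAP pathways mostly fell. Of 25 TGF-β ligands, receptors and targets 18 were lower and 4 higher (median -0.58), and of 24 YAP and TEAD genes 21 were lower and 2 higher (median -1.05). TGF-β drives fibroblasts to make matrix, and YAP works with TEAD factors to read mechanical tension. CCN2, connective tissue growth factor and on both lists, had 7703, 7277 and 7315 on day 6, against 39397, 37352 and 37776 on day 0 (5.14-fold lower, difference -2.35, SE 0.05, limma adjusted p = 4e-15). ANKRD1, a mechanosensitive muscle protein, had 728, 589 and 684 on day 6, against 5640.2, 7102 and 6365 on day 0. Both genes were lower in every day 6 library than in any day 0 library, and the days did not overlap for 69.5% of all genes. INHBA, a subunit of activin A, fell by 2.20, and LTBP2, of the family that stores latent TGF-β, by 2.09. Among ligands and receptors TGFB2 fell by 1.86 and TGFBR1 by 1.65, while TGFB3 rose by 0.54. The YAP1 transcript itself fell by 0.44. F3, tissue factor and on the YAP list, rose 6.39-fold, to 6343 ± 189.6 on day 6, against 993 ± 33.5 on day 0. The activin antagonist FST, on the TGF-β list, rose by 2.07.

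The promoters of 3 genes that fell are shown because they hold letters that the factors of these pathways bind. They run from 250 bases before to 50 bases after the gene start in RefSeq (GRCh38.p14), on the gene's strand. In CCN2 (chr6:131951323-131951622, minus strand) and ANKRD1 (chr10:90921038-90921337, minus strand) capitals mark the MCAT element, CATTCC on either strand, which TEAD factors bind. In ACTG2 (chr2:73892758-73893057, plus strand) they mark the CArG box, which serum response factor binds.
CCN2: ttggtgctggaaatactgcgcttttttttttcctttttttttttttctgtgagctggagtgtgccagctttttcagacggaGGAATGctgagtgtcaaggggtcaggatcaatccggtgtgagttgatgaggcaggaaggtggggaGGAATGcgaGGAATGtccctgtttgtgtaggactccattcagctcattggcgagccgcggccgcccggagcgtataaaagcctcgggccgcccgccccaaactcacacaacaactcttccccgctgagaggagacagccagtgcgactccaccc
ANKRD1: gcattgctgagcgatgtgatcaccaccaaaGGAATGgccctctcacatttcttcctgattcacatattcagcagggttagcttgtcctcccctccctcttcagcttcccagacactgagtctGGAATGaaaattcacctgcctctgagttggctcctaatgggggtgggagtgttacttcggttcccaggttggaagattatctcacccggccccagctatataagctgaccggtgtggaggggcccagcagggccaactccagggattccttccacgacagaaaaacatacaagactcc
ACTG2: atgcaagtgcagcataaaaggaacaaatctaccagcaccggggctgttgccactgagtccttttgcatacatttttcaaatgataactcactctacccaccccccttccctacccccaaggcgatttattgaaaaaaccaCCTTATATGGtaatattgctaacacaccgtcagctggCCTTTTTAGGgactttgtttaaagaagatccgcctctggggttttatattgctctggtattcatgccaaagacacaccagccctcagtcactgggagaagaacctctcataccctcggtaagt
CCN2 holds the MCAT letters 3 times, 169, 104 and 95 bases before the start, and ANKRD1 holds them at 220 and 128 bases. ACTG2 holds CArG boxes at 110 and 73 bases. Among all 27305 promoters of the same length in the table, 14.05% hold an MCAT element and 1.285% a CArG box. A match is a description, not a site or a cause. An MCAT element is held by 7 of 17 YAP and TEAD genes with a promoter given, and a CArG box by 4 of 20 contractile genes. Among tested protein-coding genes with a promoter, MCAT letters occur in 21.9% of the 105 lower by at least 2, 16.7% of the 126 higher by at least 3 and 10.97% of all 10689. The letters TATAAA occur in 22.9%, 15.1% and 5.56% of the same groups, and the CpG observed over expected ratio has medians of 0.670, 0.624 and 0.839.

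Of 37 mesenchymal transcription factors 24 were lower and 8 higher (median -0.48). EBF2, a factor of mesenchymal precursors, fell to 55.8 ± 10.4 on day 6, against 365 ± 9.21 on day 0. HIC1, a repressor that keeps mesenchymal progenitors quiescent in mice, fell by 1.86, and CEBPD by 1.74. The drivers of epithelial-to-mesenchymal transition fell less, with SNAI2 at -0.91, ZEB1 at -0.94, SNAI1 at -0.63 and ZEB2 at -0.37, and TWIST1 rose (0.70). PRRX2, a limb mesenchyme homeobox factor, went against the list, with 889.9, 887 and 792 on day 6, against 18.2, 21.6 and 6.84 on day 0 (limma adjusted p = 8.54e-13), while its paralog PRRX1 fell by 0.66. AP-1, the Fos and Jun dimer that holds fibroblast enhancers open, fell in 9 of 11 genes. FOSL1 had 315, 280.2 and 278 on day 6, against 1281, 1362 and 1308 on day 0, and JUND fell by 1.40. FOS alone rose, to 209 ± 14.6 on day 6, against 42.8 ± 11.7 on day 0.

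Genes of epithelial junctions mostly rose. Of 30 junction genes 23 were tested, 8 of them through day 6 alone. Of the 14 that passed on both days 10 were higher and 3 lower. F11R, the junctional adhesion molecule A, had 1214, 1184 and 1103 on day 6, against 14.7, 46.2 and 10.5 on day 0 (49-fold, difference 4.21, SE 0.19, limma adjusted p = 4.72e-11). CDH1, E-cadherin, had 455, 449 and 498 on day 6, against 12.4, 5.3 and 15.7 on day 0, and CXADR, a tight junction adhesion protein, had 429, 433 and 499 on day 6, against 10.3, 6.63 and 30.3 on day 0. CDH1 and CXADR passed through day 6 alone and so had to rise, as did CLDN7 and CLDN4 below. OCLN, occludin of the tight junction, rose by 2.29 and SPINT1, an epithelial protease inhibitor, by 3.52. Claudins, the strands of the tight junction, split, with CLDN7 (2.62) and CLDN4 (1.87) higher and CLDN1 lower (-1.68, 661 ± 49.5 on day 6 and 2237 ± 141 on day 0). In the cadherin switch the mesenchymal CDH2, N-cadherin, fell to 4831 ± 101 on day 6, against 10862 ± 384 on day 0. CDH13 fell by 1.65. The 7 junction genes not tested had at most 43.7 counts in any library, RAB25 among them with 11.7, 29.9 and 29.5 on day 6 and 0 in all 3 day 0 libraries.

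Some epithelial transcription and splicing factors appeared at low levels. Of 19 on the list 13 were tested, 6 of them through day 6 alone. Of the 6 that passed on both days 3 were higher and 1 lower. ELF3 had 304, 393 and 298 on day 6, against 13.4, 32.2 and 3.85 on day 0, GRHL3 had 169, 188 and 171 on day 6, against 0.816, 7.4 and 2.53 on day 0, and ESRP1, which switches splicing to epithelial isoforms, had 88.5, 107 and 66.6 on day 6, against 0, 9.41 and 2.06 on day 0. ELF3, GRHL3 and ESRP1 passed through day 6 alone and so had to rise. ESRP2 rose by 1.68. GRHL2, the relative most tied to E-cadherin, was not tested, with 6.74, 4.19 and 3.23 on day 6 and 0, 1.34 and 3.86 on day 0. The same held for TP63, the master factor of stratified epithelium, with 10.7, 9.04 and 7.46 on day 6 and 13.7, 9.77 and 15.4 on day 0.

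Keratins spread from a difference of 8.52 for KRT14 to -2.78 for the hair keratin KRT34. KRT14, the type I keratin of basal epidermis, had 14871, 14981 and 14343 on day 6, against 3.53, 5.06 and 1.56 on day 0 (difference 8.52, SE 0.12, limma adjusted p = 1.5e-16). KRT6A, of wounded and hair follicle epidermis, had 11517, 10989.6 and 10621 on day 6, against 1.76, 0 and 0 on day 0. KRT16, its usual partner, had 5617, 5304 and 5178 on day 6, against 2.57, 1.78 and 1.82 on day 0, and KRT17 had 3238, 2909 and 2892 on day 6, against 11.9, 3.2 and 7.89 on day 0. All 4 had at least 2892 in every day 6 library and at most 11.9 in any day 0 library. They passed through day 6 alone and so had to rise. KRT14, KRT16 and KRT17 lie side by side on GRCh38 chromosome 17, between 41582279 and 41624842, and share much of their sequence. The near-identical copies of KRT6A were not tested, KRT6B with 6.48, 7.8 and 5.38 on day 6 and 1.09, 0 and 2.26 on day 0, and KRT6C with 1.24, 0.579 and 3.59 on day 6 and 0, 2.23 and 3.82 on day 0. KRT5, the partner of KRT14 in basal epidermis, reached only 92.6, 99.4 and 104 on day 6, against 0, 0 and 4.29 on day 0, and KRT15 was not tested. The differentiation genes KRT1 and IVL stayed at or under 2 counts in all 6 libraries. Of 6 simple epithelium genes tested 2 were higher and 4 lower (median -0.47), KRT8 with 13096, 13684 and 12185 on day 6, against 4695, 4829 and 4750.3 on day 0, and KRT18 higher by 0.68. KRT19 fell by 0.37, and KRT7 fell to 177 ± 18.2 on day 6, against 924 ± 52.3 on day 0. Of 55 keratins 16 were tested, 8 through day 6 alone, and of the other 8, 2 were higher and 5 lower.

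Integrins, the receptors for these matrices, followed a like split. Of 23 tested 17 were lower and 6 higher, and of the 20 that passed on both days 16 were lower and 4 higher. With a filter at 2 above the minimum 3 were higher. ITGA6 and ITGB4, which pair in epithelial hemidesmosomes and bind laminin, rose, ITGA6 with 4140.5, 4333 and 4527 on day 6, against 415, 433 and 433 on day 0 (10.1-fold, limma adjusted p = 5.84e-13), and ITGB4 with 312, 268 and 235 on day 6, against 20.2, 23.8 and 19.7 on day 0. ITGA11, a collagen receptor of fibroblasts, fell to 5836 ± 1213 on day 6, against 50482 ± 4553 on day 0, and ITGA3 by 2.45. The common β chain ITGB1 fell by 1.39, at 26034 ± 878 on day 6 and 68210.0 ± 3087 on day 0.

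**Figure D4:**
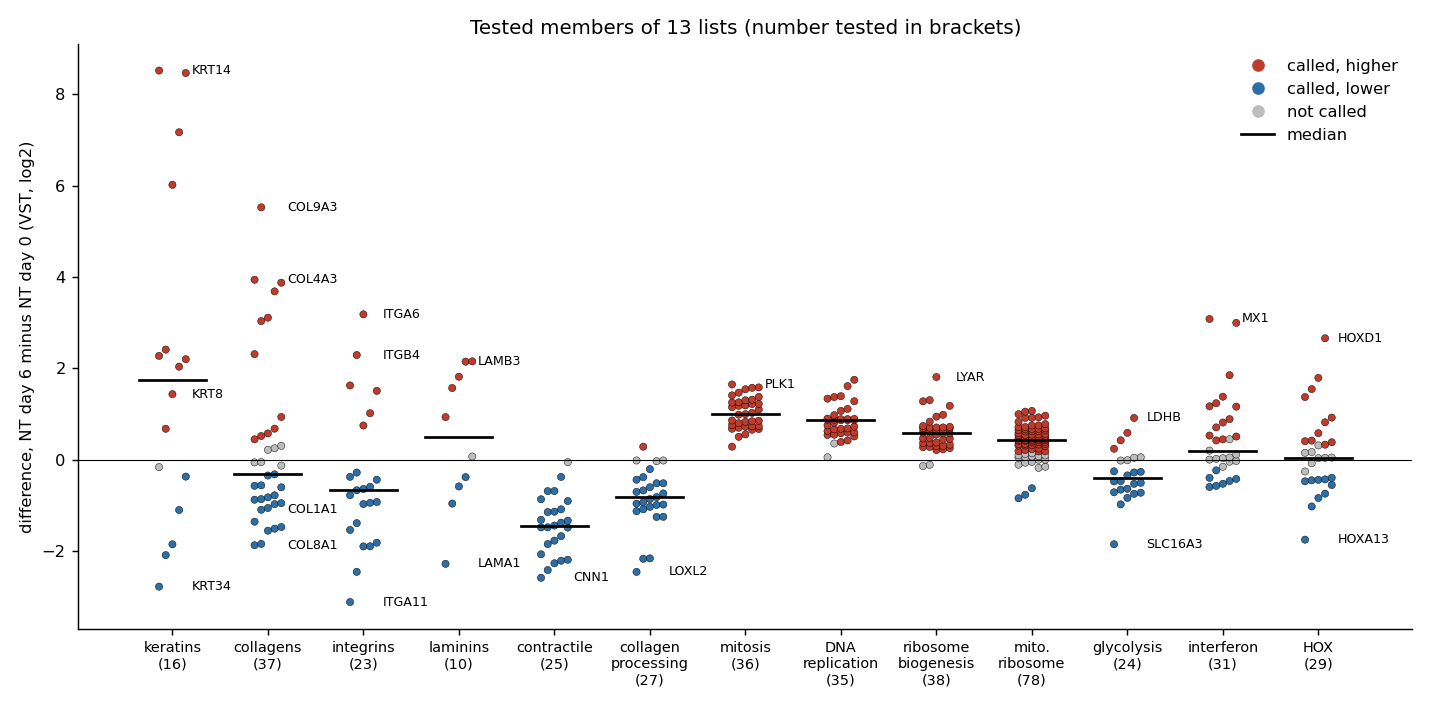
Difference between NT day 6 and NT day 0 (vertical axis, VST units, log2) of every tested member of 13 lists, one point a gene, coloured by call, with a line at the median of the list. Keratins, collagens, integrins and laminins hold genes that went both ways, while mitosis genes were all higher and contractile genes lower with 1 exception.

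Pluripotency genes rose, to levels that differed widely. Of 30 on the list 20 were tested and all 20 were higher, but 9 passed through day 6 alone and had to rise. All 11 that passed on both days were higher too. L1TD1, which binds RNA in pluripotent cells, had 2012, 2199.8 and 2221 on day 6, against 23, 36.5 and 10.6 on day 0 (difference 5.03, SE 0.13, limma adjusted p = 1.26e-13). LEFTY2, a NODAL antagonist, had 1175, 1021 and 1041 on day 6, against 5.15, 2.33 and 0 on day 0, and TDGF1, the NODAL co-receptor, had 774, 878 and 822 on day 6, against 1.06, 0 and 0 on day 0. ESRG, a noncoding RNA of embryonic stem cells, had 2167, 1972 and 2038 on day 6, against 0, 2.21 and 0 on day 0. LEFTY2, TDGF1 and ESRG were among the genes that passed through day 6 alone, so their rise followed from the filter. The same holds for GDF3, NANOG, LIN28A and LIN28B below. GDF3, a TGF-β family ligand of pluripotent cells, had 616, 643 and 559 on day 6 and 0 in all 3 day 0 libraries. NANOG, a core factor of the network, stood lower, with 277, 271 and 262 on day 6, against 0.366, 2.77 and 0 on day 0 (limma adjusted p = 3.47e-10). LIN28A, which blocks let-7 maturation, had 76, 81.4 and 86.8 on day 6, against 2.06, 0 and 1.07 on day 0, and LIN28B had 196, 214 and 246 on day 6, against 12.1, 15.6 and 13.1 on day 0. DNMT3B, a de novo DNA methyltransferase, rose 4-fold. CD24, a surface glycoprotein used to sort reprogramming cells, rose to 10707 ± 442 on day 6, against 715 ± 107 on day 0.

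Members of the network that are known to mark late stages were low. UTF1 had 52.5, 51.9 and 58.3 on day 6, against 0.76, 0 and 0 on day 0, and DPPA2 had 16.6, 43.2 and 27.5 on day 6 and 0 in all 3 day 0 libraries. PRDM14 had 14.8, 13 and 24.2 on day 6, against 1.09, 2.21 and 0 on day 0, and TERT, the catalytic subunit of telomerase, had 2.13, 3.82 and 2.82 on day 6, against 0, 0 and 1.94 on day 0. NODAL itself had 14.4, 7.57 and 17.8 on day 6, against 0, 4.27 and 0 on day 0, beside its antagonists and co-receptor above. These genes were under the filter and have no test in the fit. Genes tied to the naive state were mixed. Of 7 tested 4 passed through day 6 alone, and of the 3 that passed on both days 1 was higher and 1 lower. DNMT3L, a methyltransferase cofactor, had 272, 371 and 245 on day 6 and 0 in all 3 day 0 libraries, and ARGFX, an oocyte and embryo homeobox gene, had 363, 364 and 324 on day 6, against 0, 1.13 and 3.52 on day 0. DNMT3L and ARGFX passed through day 6 alone and so had to rise. SUSD2, a surface marker of naive cells, rose 10.9-fold. DPPA5 was at 0 in all 6 libraries, KLF17 had 2.77, 0.864 and 2.67 on day 6, against 3.29, 6.62 and 7.93 on day 0, and TBX3 fell by 1.47.

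The NANOG promoter and the miR-302 family are shown because both are textbook targets of OCT4 and SOX2. In the NANOG promoter (RefSeq, GRCh38.p14, chr12:7789152-7789451, plus strand) capitals mark the composite element in which the OCT4 and SOX2 letters adjoin, searched on both strands as TTTGCAT, any base, then ACAATG.
NANOG: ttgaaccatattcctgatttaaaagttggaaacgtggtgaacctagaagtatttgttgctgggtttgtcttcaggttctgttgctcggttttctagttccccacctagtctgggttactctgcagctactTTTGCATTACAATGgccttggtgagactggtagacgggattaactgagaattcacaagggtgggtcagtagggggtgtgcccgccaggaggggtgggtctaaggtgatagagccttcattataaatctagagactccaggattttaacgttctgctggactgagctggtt
The element starts 120 bases before the gene start. It occurs in 3 of 27305 promoters (0.011%). Only 1 of 11 pluripotency genes with a promoter given holds it, and among the 126 genes higher by at least 3 only NANOG does. Here too a match is a description, not a site or a cause. The host transcript of the miR-302 and miR-367 cluster, MIR302CHG, had 199, 197 and 168 on day 6, against 1.14, 0 and 1.22 on day 0 (difference 2.87, limma adjusted p = 2.73e-11). MIR302CHG passed through day 6 alone and so had to rise. The mature miRNAs were not measured. Their sequences (RefSeq, GRCh38.p14, chromosome 4, minus strand, from 112647877 to 112648511) are given with the seed, bases 2 to 8, in capitals.
hsa-miR-302a-3p: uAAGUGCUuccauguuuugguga
hsa-miR-302b-3p: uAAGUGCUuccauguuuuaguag
hsa-miR-302c-3p: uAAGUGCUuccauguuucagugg
hsa-miR-302d-3p: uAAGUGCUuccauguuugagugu
hsa-miR-367-3p: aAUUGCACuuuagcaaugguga
The first 4 share 1 seed, and miR-367 has another. Of 84 miRNA host genes 23 were tested, 5 higher and 11 lower, and those higher numbered 1 after quantile normalisation, 3 without NT day 0 replicate 2 and 0 with a filter at 2 above the minimum. MIR31HG fell by 1.65, MIR23AHG by 1.69 and MIR503HG by 1.85.

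Markers of unrelated lineages went both ways, and many were not tested. STMN2, a neuronal microtubule protein, had 2475, 2578 and 2479 on day 6, against 25, 24.3 and 8.84 on day 0 (limma adjusted p = 1.39e-14), and NEFL, neurofilament light chain, rose 16.6-fold. Of 30 neural markers 10 were tested, with 8 higher and 1 lower, and of the 9 that passed on both days 7 were higher. NCAM1, a neural adhesion molecule, fell to 248 ± 27 on day 6, against 397 ± 111 on day 0. SOX1 had 2.77, 1.78 and 1.84 on day 6 and 1.02, 2.19 and 2.31 on day 0, and PAX6 had 5.12, 12.9 and 2.09 on day 6 and 4.75, 23.1 and 4.04 on day 0. Of 26 muscle genes 11 were tested, with 6 higher and 3 lower, and of the 6 that passed on both days 3 were higher and 1 lower. ACTC1, cardiac actin, rose 17.1-fold, and CKM, muscle creatine kinase, had 139, 134 and 132 on day 6, against 0, 1.1 and 0 on day 0, passing through day 6 alone. The muscle factors MYOD1, MYOG and MYF5 had means under 3 on both days. Of 22 trophoblast genes 9 were tested, with 6 higher and 2 lower, and of the 4 that passed on both days 2 were higher and 1 lower. ERVW-1, the placental retroviral envelope syncytin-1, had 870.0, 1025 and 913 on day 6, against 0, 0.732 and 4.56 on day 0, also passing through day 6 alone. GATA3 fell to 12.8 ± 4.44 on day 6, against 43.2 ± 7.14 on day 0, having passed through day 0 alone, and GCM1, ELF5 and VTCN1 had means under 3 on day 6.

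Several transcription factors of other lineages passed through day 6 alone and so had to rise. GATA2, of trophoblast, blood and endothelium, had 280.1, 275 and 235 on day 6, against 11.9, 3.92 and 17.3 on day 0. SOX18, of endothelium, had 157, 170.3 and 158 on day 6, against 2.74, 0 and 1.13 on day 0, and HAND1, of early mesoderm and trophoblast, had 116, 137 and 99.6 on day 6 and 0 in all 3 on day 0. FOXA1 and HNF4A, of endoderm and liver, had 105 ± 7.03 and 104 ± 5.52 on day 6, against 1.71 ± 1.55 and 2.83 ± 0.945 on day 0. GATA6, of endoderm and heart, fell to 129 ± 9.96 on day 6, against 197 ± 30.7 on day 0. Of 16 endothelial genes 11 were tested, with 7 higher and 2 lower, and of the 8 that passed on both days 4 were higher and 2 lower. KDR, the VEGF receptor, had 795, 749.8 and 762 on day 6, against 21.6, 23.7 and 36.3 on day 0, and TEK, the angiopoietin receptor, rose 4.17-fold. Of 7 neural crest genes tested 3 were higher and 4 lower. ERBB3 and NGFR, receptors of glial precursors, rose to 405 ± 41.6 and 216 ± 15.4 on day 6, against 32.1 ± 11.3 and 3.05 ± 2.71 on day 0, NGFR through day 6 alone, whereas ETS1 fell by 1.69. PAX8, of kidney and thyroid, fell to 315 ± 29.5 on day 6, against 1505 ± 429 on day 0. None of the 5 mesoderm and 6 blood markers used to check cell types passed the filter, with summed counts of 12 to 35.5 on day 6 and 17 to 32.4 on day 0 for mesoderm. The longer lists did hold tested genes. Of 20 blood cell genes 4 were tested, 3 higher and 1 lower, with 2 passing through day 6 alone. Of 22 primitive streak and endoderm genes 6 were tested, 3 higher and 3 lower, with 3 passing through day 6 alone and 1 through day 0 alone.

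**Figure D5:**
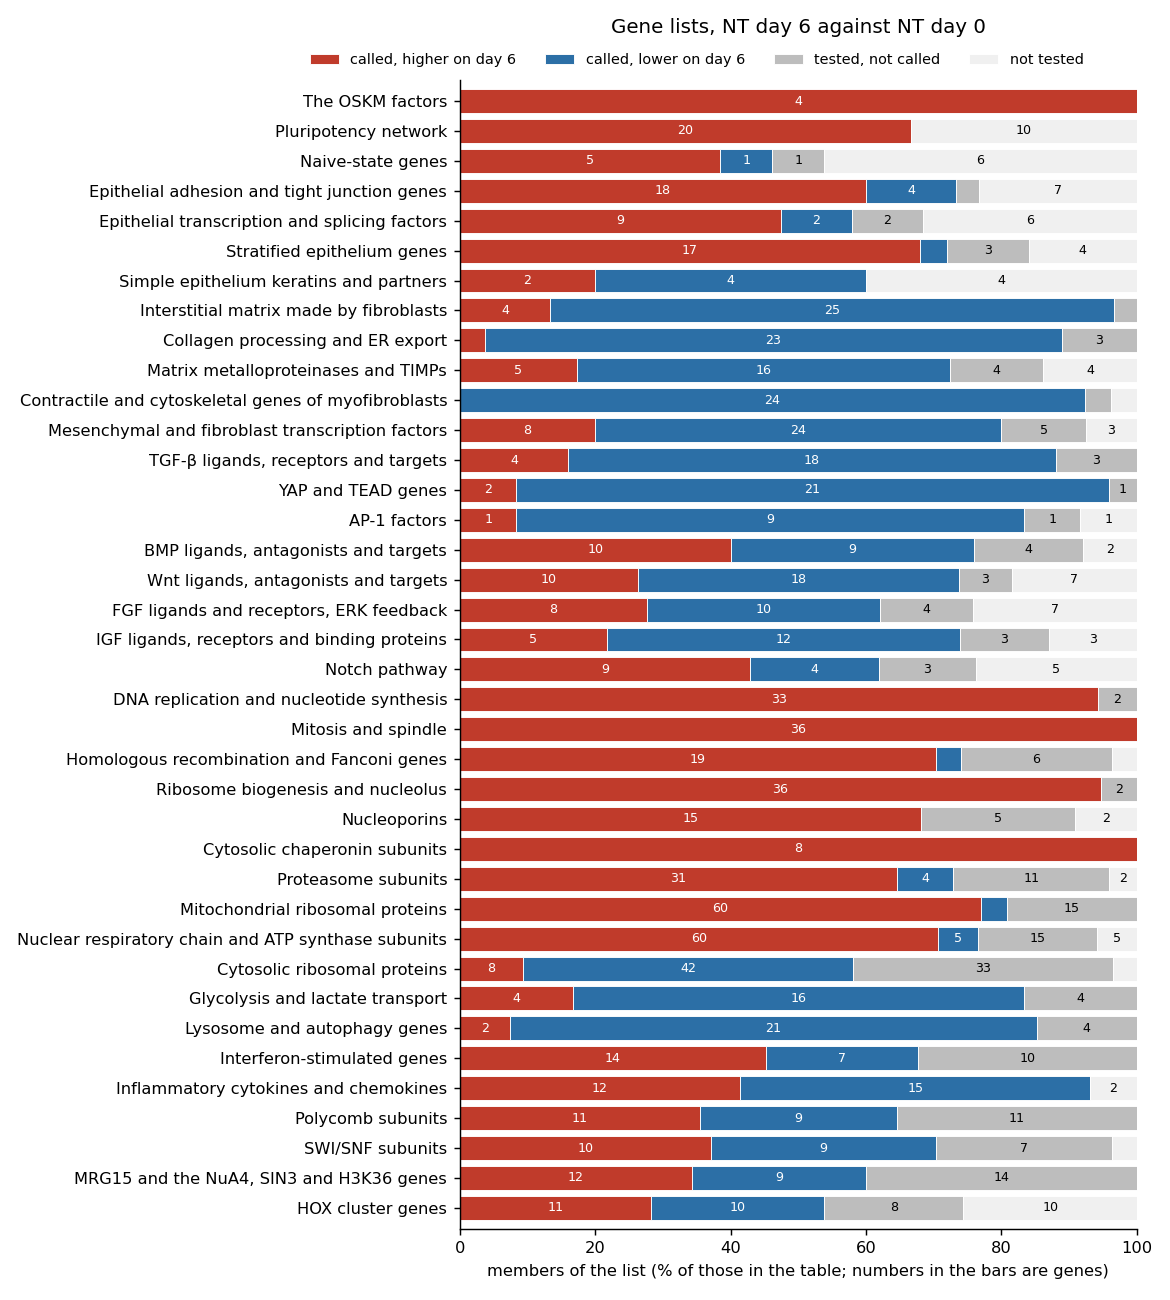
Members of 38 gene lists by call (horizontal axis, % of the members in the table, with gene numbers in the bars), as called higher on day 6, called lower, tested but not called, and not tested. All 36 mitosis genes and 36 of 38 ribosome biogenesis genes were higher, and 24 of 26 contractile genes were lower.

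Genes of cell division mostly rose. All 36 mitosis genes tested were higher (median 1.01), as were 33 of 35 replication genes (median 0.86) and 19 of 26 genes of homologous recombination and the Fanconi pathway, with 1 lower (median 0.56). PLK1, a mitotic kinase, had 2223, 2194 and 2046 on day 6, against 675, 679 and 595 on day 0 (difference 1.65, SE 0.08, limma adjusted p = 6.37e-11). CDK1, the mitotic cyclin-dependent kinase, had 1257, 1278 and 1278 on day 6, against 389.6, 387 and 392 on day 0, and ORC1, of the origin recognition complex, had 470.1, 447 and 457 on day 6, against 106, 101 and 94 on day 0. In all 3 genes the days were apart, as in 69.5% of all genes. RRM2, which makes deoxyribonucleotides, rose 2.72-fold and FANCI 2.64-fold. G1 regulators went both ways, with 7 of 22 higher and 10 lower, beside 33.5% and 33.2% of all genes. CDC25A, a phosphatase that starts S phase, rose 6.8-fold, to 994 ± 28.9 on day 6, against 146 ± 6.1 on day 0. CCND1, cyclin D1, fell by 0.70, and the inhibitors CDKN1A, CDKN2A and CDKN2B, known as barriers to reprogramming, fell by 0.37, 0.23 and 0.33. Of 24 p53 targets 7 were higher and 9 lower (median 0.01), beside 33.5% and 33.2% of all genes. BTG2, an antiproliferative p53 target, rose 11-fold.

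Ribosome biogenesis genes rose while ribosomal proteins did not rise as a group. Of 38 ribosome biogenesis genes 36 were higher and 0 lower (median 0.58). LYAR had 1188, 1374 and 1289 on day 6, against 281, 348 and 353 on day 0 (3.92-fold, limma adjusted p = 3.22e-11), and NOLC1, a nucleolar chaperone, had 4537, 5026 and 4865 on day 6, against 1890.3, 1933 and 2018 on day 0. POLR1B, a subunit of RNA polymerase I, rose 2.63-fold. Of 83 cytosolic ribosomal proteins 8 were higher and 42 lower (median -0.12), RPL28 with 6559 ± 286 on day 6 and 10676 ± 291 on day 0. This direction depends on scaling. After quantile normalisation 47 were higher and 4 lower, and their share of all counts was 5.02 to 5.44% on day 6 and 4.48 to 4.93% on day 0. Mitochondrial ribosomal proteins were higher in 60 of 78 cases and lower in 3 (median 0.43), with MRPS25 rising 2.17-fold. Nuclear subunits of the respiratory chain were higher in 60 of 80 and lower in 5 (median 0.34), ATP5F1B with 18936 ± 549 on day 6 and 10551 ± 351 on day 0. The mitochondrial genome's 13 protein genes accounted for 4.53 to 4.84% of the counts on day 6 and 3.52 to 3.59% on day 0. MT-ND2 rose 1.49-fold, while MT-CO1 fell by 0.18, a direction that turned after quantile normalisation. All 8 subunits of the cytosolic chaperonin were higher (median 0.61, CCT3 at 0.74), as were 31 of 46 proteasome genes (4 lower, median 0.25) and 15 of 20 nucleoporins (0 lower, NUP160 at 1.25).

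Metabolic genes went both ways. In glycolysis 16 of 24 were lower and 4 higher (median -0.40), and after quantile normalisation 9 were higher. The list took 1.515 to 1.598% of the counts on day 6 and 1.605 to 1.716% on day 0. SLC16A3, the exporter of lactate in glycolytic cells, fell to 1978 ± 140.0 on day 6, against 7268 ± 292 on day 0. LDHB, the lactate dehydrogenase of oxidative tissues, rose 1.89-fold. GAPDH and LDHA had differences of -0.53 and -0.47, which turned to 0.10 and 0.13 after quantile normalisation. Of 29 genes of serine, one-carbon and purine synthesis 16 were higher and 6 lower, with 2 lower after quantile normalisation. GLDC and GCSH, parts of the glycine cleavage system, rose, GCSH with 1551, 1619.9 and 1574 on day 6, against 382, 414 and 413 on day 0. Cholesterol and fatty acid genes were split, 13 of 30 higher and 9 lower. ELOVL6, which lengthens fatty acids, had 1742, 2151 and 2079 on day 6, against 544, 654 and 474 on day 0 (3.57-fold, limma adjusted p = 5.34e-10). STARD4, which carries cholesterol between membranes, fell by 1.26, and LSS, an enzyme of cholesterol synthesis, by 0.56. Lysosome and autophagy genes were lower in 21 of 27 cases and higher in 2, with CTSB, cathepsin B, at 13053 ± 299 on day 6 and 56543 ± 2387 on day 0. MT2A, a metallothionein that binds zinc, had 795, 785 and 732 on day 6, against 7154, 7544 and 7171 on day 0, while MT1X had 1374, 1555 and 1302 on day 6, against 227, 227 and 194 on day 0.

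Signalling genes changed in both directions in each of the BMP, Wnt, FGF, IGF and Notch lists. Among all genes 33.5% were higher and 33.2% lower. Of 22 FGF genes 8 were higher and 10 lower, and of 16 Notch genes 9 were higher and 4 lower. Of those that passed on both days FGF had 7 of 20 higher and 9 lower, and Notch 6 of 13 higher and 4 lower. GREM1, a secreted BMP antagonist, had 9550.4, 8802 and 9478 on day 6, against 97325, 96009 and 95986 on day 0 (10.4-fold lower, limma adjusted p = 2.24e-17). CHRD, another BMP antagonist, had 302, 237 and 276 on day 6, against 4.5, 14.2 and 8.14 on day 0. CHRD passed through day 6 alone and so had to rise. The ligands GDF5 and GDF6 fell by 2.89 and 2.90, and the BMP target ID1 rose by 1.85. Of 23 BMP genes 10 were higher and 9 lower, and of the 21 that passed on both days 8 were higher and 9 lower. Wnt genes were lower in 18 of 31 cases and higher in 10, and of the 28 that passed on both days 17 were lower and 8 higher. LGR5, an R-spondin receptor, had 79.9, 60.3 and 90.5 on day 6, against 1425, 1193 and 1269 on day 0, and the antagonist SFRP1 fell by 2.66, while FZD5, a Wnt receptor, had 1099.5, 1195 and 1108 on day 6, against 24.5, 34.1 and 32.3 on day 0. The Wnt target AXIN2 rose by 1.52. Among FGF genes FGFR3 had 1012, 1020.1 and 1019 on day 6, against 46.7, 10.2 and 7.16 on day 0, and the ligands FGF5 and FGF2 fell by 3.15 and 1.62. In the IGF pathway 12 of 20 were lower and 5 higher. IGFBP6 rose 8.7-fold and IGFBP7, IGFBP3 and the protease PAPPA fell by 2.31, 1.97 and 2.47. The Notch ligand JAG1 rose 3.26-fold, to 6386 ± 260.3 on day 6, against 1959 ± 117 on day 0. Outside the signalling lists OXTR, the oxytocin receptor, had 236, 208 and 283 on day 6, against 5328, 5776 and 6087 on day 0 (23.7-fold lower), and GAS6, the ligand of AXL, had 1828, 1861 and 1756 on day 6, against 21670.1, 20078 and 19935 on day 0. SEMA6A, an axon guidance ligand, had 2954, 2878 and 3095 on day 6, against 18.7, 10.3 and 21.4 on day 0.

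Interferon genes were higher in 14 of 31 cases and lower in 7. MX1, an antiviral GTPase, had 3864, 4754 and 3969.6 on day 6, against 563, 254 and 598 on day 0 (8.9-fold, difference 3.08, SE 0.22, limma adjusted p = 8.4e-09). IFI27 had 876, 924 and 675 on day 6, against 65.1, 56.4 and 57 on day 0, and OAS1, a sensor of double-stranded RNA, had 429, 519 and 403 on day 6, against 116, 57.1 and 98.1 on day 0. The spread among the day 0 libraries was wide for MX1 and OAS1, but no day 0 library reached a day 6 library. The days did not overlap for 69.5% of all genes. Other classical members did not pass the test, ISG15 with 1045 ± 185 on day 6 and 1037 ± 232 on day 0 and IFIT3 with 533 ± 60.8 on day 6 and 529 ± 142 on day 0. The signal transducer STAT2 fell by 0.42. The MX1 promoter (RefSeq, GRCh38.p14, chr21:41420308-41420607, plus strand) is shown with the interferon-stimulated response element, searched on both strands as GAAA, any 2 bases, then GAAA, in capitals.
MX1: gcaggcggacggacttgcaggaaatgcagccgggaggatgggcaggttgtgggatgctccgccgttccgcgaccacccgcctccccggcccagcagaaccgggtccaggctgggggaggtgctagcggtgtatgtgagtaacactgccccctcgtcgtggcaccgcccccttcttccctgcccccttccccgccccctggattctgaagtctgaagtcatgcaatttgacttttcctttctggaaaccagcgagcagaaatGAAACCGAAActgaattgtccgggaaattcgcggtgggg
The match begins 11 bases after the start. It is held by 16 of 24 interferon genes with a promoter given, against 3.648% of all 27305 promoters. Of 15 antigen presentation genes 9 were higher and 4 lower. NLRC5, which activates HLA class I genes, rose 6.22-fold, and ERAP2, which trims peptides, fell by 0.97. Of 27 inflammatory genes 12 were higher and 15 lower, and of the 22 that passed on both days 8 were higher and 14 lower (median -0.70). With a filter at 2 above the minimum 7 were higher. PTX3, a pentraxin, had 604, 615 and 577 on day 6, against 6527, 7427 and 7608 on day 0, PTGS2, which makes prostaglandins, fell by 3.01, and LIF, a cytokine of the IL-6 family, by 2.84. CXCL1 and IL1B rose by 2.14 and 1.80.

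Chromatin genes went both ways. Of 31 Polycomb genes 11 were higher and 9 lower (median 0.02), and of 26 SWI/SNF genes 10 were higher and 9 lower (median 0.00), near the shares among all genes. EZH2, the Polycomb methyltransferase, rose 2.14-fold and its cofactors MTF2 and JARID2 by 1.00 and 0.97, while the paralog EZH1 fell by 0.88. SMARCD3 and DPF3, subunits of muscle and heart SWI/SNF complexes, fell by 1.45 and 1.28. KDM1A, the histone demethylase LSD1, rose 2.6-fold, to 6998 ± 488 on day 6, against 2687 ± 78.8 on day 0, and CHD1, a remodeller that mouse stem cells need, rose 2.68-fold. Among NuA4, SIN3 and H3K36 genes 12 of 35 were higher, led by RUVBL1 (1.03), and 9 lower, beside 33.5% and 33.2% of all genes. Of 18 DNA methylation genes 11 were higher and 5 lower, GADD45B falling by 2.00 and ZBTB38, which binds methylated DNA, by 1.52. MORF4L1, which encodes MRG15 itself, had 6956 ± 217 on day 6 and 7773 ± 90.4 on day 0, a difference of -0.16 that turned to 0.10 after quantile normalisation and lost its call without NT day 6 replicate 1 (-0.13). HOX genes, which record position along the body, were split evenly, 11 of 29 higher and 10 lower, near the shares among all genes. With a filter at 2 above the minimum 7 were higher. HOXD1, which passed through day 6 alone, had 199, 263 and 248 on day 6, against 4.16, 9.82 and 5.69 on day 0, and HOXA13, the most distal member of its cluster, had 119, 78.9 and 100.4 on day 6, against 471, 409 and 474 on day 0. Zinc finger genes were higher in 123 of 458 cases and lower in 106, beside 33.5% and 33.2% of all genes. ZNF385A rose to 799 ± 16 on day 6, against 107 ± 3.4 on day 0.

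Stress genes of the integrated stress and unfolded protein responses were lower in 13 of 26 cases and higher in 8. TRIB3 and DDIT3, both induced through ATF4, fell by 1.04 and 0.98, and SDF2L1, a chaperone partner, rose by 0.62. Splicing factors were higher in 20 of 32 cases and lower in 7, with RBM47, of epithelia, at 140.2 ± 26.1 on day 6 and 18.3 ± 2.88 on day 0. Of 10 S100 calcium-binding proteins 7 were higher and 1 lower, and of the 8 that passed on both days 5 were higher and 1 lower. S100P, which passed through day 6 alone, had 119, 144 and 126 on day 6 and 0.987, 0 and 0 on day 0, and S100A2 had 1072, 1154 and 1049 on day 6, against 308, 214 and 313 on day 0. Among 13 tubulins 7 were higher and 3 lower. TUBB2B and TUBB3, both of neurons, rose 7.82- and 2.14-fold, and TUBA1A fell by 1.49. Among axon guidance families SEMA3E and SEMA3G rose to 835 ± 99.2 and 384 ± 38.3 on day 6, against 53.9 ± 6.02 and 4.23 ± 1.78 on day 0, SEMA3G through day 6 alone, and the ephrin receptor EPHB2 fell to 354 ± 22.2 on day 6, against 1287 ± 247 on day 0. Clustered protocadherins, the adhesion barcode of neurons, were lower in 13 of 37 cases, near the 33.2% of all genes, and higher in 2. After quantile normalisation 23 were lower and 1 higher. PCDHGB4 had 1071 ± 91.2 on day 6 and 2345 ± 201 on day 0.

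Other genes with large differences belonged to no list. SCARA5, a ferritin receptor, had 3625, 3681 and 3626 on day 6, against 0, 2.13 and 4.69 on day 0. GCNT3, which branches mucin sugars, had 2432, 2682 and 2528 on day 6, against 4.22, 3.41 and 8.4 on day 0, and CD55, which shields cells from complement, had 7736, 8083 and 7552 on day 6, against 662, 634 and 662 on day 0. TNXB, tenascin X, had 9155, 8872 and 8589.9 on day 6, against 501, 350.4 and 411 on day 0, opposite in direction to its relative TNC. CRABP2, which carries retinoic acid to its receptor, rose 8.62-fold and the chemokine scavenger ACKR3 8.76-fold. On the lower side RGS4, a brake on G protein signals, had 569, 646 and 779.9 on day 6, against 7905, 8401 and 8872 on day 0. MME, the peptidase neprilysin and a marker of stromal cells, had 1531, 1225 and 1373 on day 6, against 13288, 14002 and 13911 on day 0, and CLSTN2, a calsyntenin, had 178, 193 and 221 on day 6, against 3032, 3091 and 3569 on day 0. SHROOM2, SRGN, SIGLEC15 and F2RL2 fell by 3.54, 3.47, 3.36 and 3.35. Days that do not overlap were a condition of naming the genes of this paragraph.

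Of 1049 long non-coding genes 227 were higher and 274 lower, and of 13280 protein-coding genes 4655 were higher and 4557 lower. Among the non-coding genes MIAT, a nuclear RNA, had 6198, 5634 and 5581 on day 6, against 137, 98.6 and 114 on day 0 (difference 5.12, limma adjusted p = 4.18e-15). HCP5, which lies near POU5F1, had 709.9, 863 and 778 on day 6, against 15.3, 12.8 and 13.8 on day 0, and PCAT14 had 407, 441 and 397 on day 6, against 3.08, 0 and 4.54 on day 0. HCP5 and PCAT14 passed through day 6 alone and so had to rise, besides being picked for large differences. TRHDE-AS1 had 30.1, 28.4 and 33.1 on day 6, against 284, 244 and 310.1 on day 0. GAS6-DT, divergent from GAS6, fell by 1.96, as GAS6 itself did. The small nucleolar RNA host genes were higher in 13 of 24 cases and lower in 5, SNHG15 with 986 ± 88.7 on day 6 and 384 ± 26.9 on day 0, and SNHG18 with 235 ± 9.42 on day 6 and 699 ± 91.8 on day 0. By chromosome the median difference ran from -0.11 for X to 0.10 for chromosome 13.

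The day difference was also compared with that of the cells with a guide against MRG15, through the interaction term of the same fit. Of 14836 genes 3005 (20.3%) differed between the genotypes in that change, 1335 (9%) with a higher difference in MRG15 guide cells and 1670 (11.3%) with a lower one.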

How the data were processed

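Messenger RNA was sequenced in 12 libraries of dH1f cells, 3 in each of 4 groups, from TruSeq stranded libraries per the labels' protocols. The deposited table holds log2 values for 60660 gene identifiers, which the authors had normalised and put through a variance-stabilising transformation (VST), as its title says. Among the tools and builds listed in the submitters' processing notes are DESeq2, Salmon, STAR and GRCh38, without versions, and neither the annotation release nor the settings used are stated there. The table holds no raw counts, so no count test was run. Depth was estimated at 20.8 to 22.2 M reads for NT day 6 and 20.7 to 21.4 M for NT day 0. Counts per library were estimated by inverting the parametric VST, a form assumed here, after which 64.1 to 70.4% of low values lay within 0.1 of a whole read. They describe levels only.

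Genes with a mean VST at least 1 above the table minimum of 4.85 over the 6 NT libraries were fitted with limma 3.58.1 in R 4.3.3 (empirical Bayes with trend) over all 4 groups. The contrast was NT day 6 minus NT day 0, and the interaction was the same contrast in the cells with a guide against MRG15 minus that in NT cells. P-values were Benjamini-Hochberg adjusted over 14836 genes and called under 0.05. On simulated data 71.2% of 66 differences of 0.5 and 95.5% of 67 differences of 1 were recovered, among 14836 genes. Far fewer genes were changed there than were called in the data, so these shares do not give the recovery in the data. Symbols were matched for 14810 genes, and positions and types come from GENCODE 29 for 14766. Tables and figures were made with Python 3.11.15, pandas 2.3.3, numpy 2.4.6 and matplotlib 3.10.9. Alternatives were other filters, quantile normalisation, a shift to a common median, pseudocounts of 1 and 10 on estimated counts, robust variances, no trend, only the 6 NT libraries, a replicate block, and leaving out each library.

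The groups, gene lists and rules were chosen with earlier results of these data known. The genes named by rule are the 4 factors, the 15 highest and 15 lowest called protein-coding genes whose days do not overlap, the 10 highest and 10 lowest with a mean at least 4 above the minimum on each day, the 5 highest and 5 lowest that are not protein-coding, the 4 called members with the largest difference in each list, and the 10 genes with most reads on each day. Chosen after their values were seen were ACTA2, ACTG2, ADIPOQ, AXIN2, BMP1, CCND1, CDH2, CDKN1A, CDKN2A, CDKN2B, COL14A1, COL4A1, COL4A2, CXCL1, DCN, EZH1, FBLN2, FBN2, FST, GAPDH, GATA3, GATA6, GDF3, HBA2, ID1, IFIT3, IL1B, ISG15, ITGB1, KLK10, KRT19, KRT34, KRT5, LDHA, LIN28A, LIN28B, LSS, MORF4L1, MYH11, NANOG, NCAM1, OCLN, PRB1, PRRX1, SERPINH1, SNAI1, SNAI2, STAT2, TBX3, TGFB2, TGFB3, TGFBR1, TIMP2, TIMP3, TWIST1, YAP1, ZEB1 and ZEB2, the genes given at the limit of the filter and the untested genes. A few genes that the rule names are not reported here.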

Additional observations from a re-analysis of the deposited data

Results flagged for a closer look

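The change from day 0 to day 6 was compared between cells with a guide against MRG15 and NT cells for 31 genes, the factors and the genes with the highest and lowest differences, and 20 differed by the interaction term (limma adjusted p under 0.05 over all genes). Of these 14 had a lower difference in cells with the MRG15 guide and 6 a higher one, beside 11.3% lower and 9% higher among all genes. The genes were chosen for large differences in NT cells, which the interaction subtracts, so nothing is read from these counts. The values in brackets are MRG15 guide minus NT.

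The 4 keratins among these genes had smaller positive differences with the MRG15 guide than in NT cells. The difference of KRT17 was 3.81 in cells with the MRG15 guide and 6.02 in NT cells (-2.21), that of KRT6A was 6.76 in cells with the MRG15 guide and 8.47 in NT cells (-1.71), that of KRT16 was 5.62 in cells with the MRG15 guide and 7.17 in NT cells (-1.55) and that of KRT14 was 6.98 in cells with the MRG15 guide and 8.52 in NT cells (-1.54). IGF2 also rose by less, with 7.90 in cells with the MRG15 guide and 9.02 in NT cells (-1.12), as did PI16, with 6.86 in cells with the MRG15 guide and 7.37 in NT cells (-0.51).

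Of the genes that fell in NT cells, 8 had a more negative difference with the MRG15 guide. The difference of GREM1 was -5.22 in cells with the MRG15 guide and -3.37 in NT cells (-1.85). The values in brackets were -1.37 for PTX3, -1.27 for MME, -1.16 for GAS6, -1.10 for LGR5, -0.96 for F2RL2, -0.93 for SIGLEC15 and -0.45 for OXTR. RGS4 was the exception among the lower genes listed here, falling by less with the MRG15 guide (0.54).

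Of the factors SOX2 rose by more with the MRG15 guide, with 8.14 in cells with the MRG15 guide and 7.32 in NT cells (0.82). KLF4 (0.24) and MYC (0.24) differed by little. TUBB4A rose by more, with 9.08 in cells with the MRG15 guide and 7.79 in NT cells (1.29), and CALB1 did too (0.68). The part of the factors' own levels in the other differences was not tested.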

How the results depend on the processing

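The number of genes called, 9901 as reported, was 8536 to 10820 under the other settings that kept all libraries, and 9328 to 9487 with 1 library left out. In the same leave-one-out fits the genes called higher numbered 4657 to 4756 and those lower 4670 to 4738. Replicate numbers did not pair the libraries: residuals of day 6 and day 0 libraries with the same number correlated at 0.004 to 0.061, and replicates 2 and 3 but not replicate 1 correlated best with their own number, a hint from the data and not from the design. With a replicate block 9926 genes were called, 4986 higher and 4940 lower, and all 377 named genes kept direction and call. Of the 377 named genes 367 kept both under every setting they were fitted in. Quantile normalisation turned 5 directions, to 0.28 for EEF1A1, 1.29 for MT-CO1, 0.10 for GAPDH, 0.13 for LDHA and 0.10 for MORF4L1, ended the calls of COL1A1 (0), RPL13 (-0.06) and MT-RNR2 (-0.13), and called MT-ND4 (0.55). DCN also lost its call after a shift to a common median (0.20) and in the fit of only the 6 NT libraries (0.25). In every NT library the only gene above COL1A1 in counts was MT-CO1 on day 6 or FN1 on day 0. Quantile normalisation gives equal ranks equal values, so the value of 0 for COL1A1 follows from the method. The cause of the other changes was not tested. Of 148 list counts 109 stayed within 1.5 times under every setting. After quantile normalisation 47 cytosolic ribosomal proteins and 13 genes of the mitochondrial genome were higher, against 8 and 8 as reported. The values are transformed, so small counts limit what can be said of genes under 14.4 counts, and no setting tests OSKM apart from time in culture.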
